A study of Mus musculus with 15 samples.

Results

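The 44 collagen chain genes of the mouse were followed through sorted cell populations that descend from neuromesodermal progenitors, cells of the tail end of the embryo with both neural and mesodermal fates. A gene was included when its symbol in the deposited table had the form Col, a number, a and a number. The rule itself used no measured value, but it was chosen with earlier results of these data known. The rule found 44 of 56092 named genes. They were described in 4 classes: 8 fibrillar chains, 9 basement membrane chains, 7 cartilage chains and 20 others.

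Bulk RNA was sequenced in 15 libraries from the mouse embryonic stem cell line STR-KI, of genotype Sox2::mCherry/WT, Tbxt::GFP/WT, which all groups share. One allele of Sox2, a gene of neural progenitors, thus reports in red, and one of Tbxt, the gene of Brachyury, reports in green. Cells spent 48 h in 10 ng/mL FGF2 and 24 h in FGF2 with 5 µM CHIR, and those positive for both reporters were the NMP group (3 libraries). These were cultured for 48 h in FGF2 with CHIR (FGF/CHIR) and sorted as mCherry-positive (Sox2 48 h cells, 2 libraries) or GFP-positive (Tbxt 48 h cells, 2 libraries). Sox2-derived cells then grew for 7 d in FGF/CHIR or in FGF2 alone (FGF) and were sorted as mCherry-positive (Sox2+) or negative for both reporters (DN). They gave 2 FGF Sox2+ libraries and 1 library each of FGF DN, FGF/CHIR Sox2+ and FGF/CHIR DN cells. Tbxt-derived cells grew for 7 d in FGF/CHIR and were sorted as negative for both reporters (Tbxt 7 d cells, 3 libraries). Only this one line was used, and the labels do not say that libraries of a group came from separate cultures, so the p-values may measure technical spread alone. A group of 1 library has no replicate check and borrows the spread of the other groups in every test.

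Collagens are secreted proteins built from 3 chains wound into a triple helix, and each chain has its own gene. Types I, III and V form the fibrils of skin, tendon and mesenchyme, type IV forms the sheet-like network of basement membranes, and types II, IX and XI form the fibrils of cartilage. Types XII, XIV and XVI belong to the fibril-associated collagens, type VI forms beaded microfilaments around cells, and types XIII, XXIII and XXV are transmembrane proteins. In the embryo, type IV chains are made early and in very large amounts by parietal endoderm, while type I and III chains mark mesenchyme.

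The start regions of 3 chains that were each higher in Tbxt 7 d than in Tbxt 48 h cells, Col3a1, Col1a2 and Col6a3, are printed first. Levels of these genes recur in the results below. They were picked after their values were seen. Each line gives 120 bases of the coding strand from the RefSeq promoter table (GRCm38.p6), 5′ to 3′, with TATAAA, a core promoter motif, and GGGCGG, a motif known to bind Sp1, in capitals. Col3a1 (chr1:45311418-45311537, plus strand) and Col6a3 (chr1:90843972-90844091, minus strand) end at the base before the RefSeq start of that table. Col1a2 (chr6:4505373-4505492, plus strand) ends 125 bases before it. The RefSeq gene span of Col6a3 reaches 90844001, so part of its printed stretch lies inside that span.
Col3a1: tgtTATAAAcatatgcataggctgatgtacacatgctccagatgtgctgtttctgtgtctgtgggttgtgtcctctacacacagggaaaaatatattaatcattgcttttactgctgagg
Col1a2: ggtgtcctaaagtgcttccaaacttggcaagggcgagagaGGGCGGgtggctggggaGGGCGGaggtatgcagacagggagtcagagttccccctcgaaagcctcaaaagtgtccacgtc
Col6a3: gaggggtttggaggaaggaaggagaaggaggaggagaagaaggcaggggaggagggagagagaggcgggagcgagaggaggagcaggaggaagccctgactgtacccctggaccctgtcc
Counted back from the base after each printed stretch, TATAAA began at -117 in Col3a1 and GGGCGG at -80 and -63 in Col1a2, while the printed bases of Col6a3 held neither. Of the 44 genes, 35 were in the promoter table. In the 250 bases before the start, on either strand, TATAAA was present in 5 of the 35 (14.3%) and in 14.3% of all 27025 genes of the table. CCAAT was present in 13 of 35 (37.1%) against 37.5% of all genes, and GGGCGG in 21 of 35 (60%) against 35.4%. None of the 3 motifs holds another. The letters describe these windows and were not tied to any level.

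The deposited values are CPM, read counts scaled to the same total in every library. The step that 1 read makes in a library put the depth at 3.43 to 9.88 M reads (M, 1000000) in 14 libraries, where 3 reads are worth 0.304 to 0.874 CPM. FGF Sox2+ replicate 2 held 0.799 M, where 3 reads are worth 3.76 CPM; levels at or under 3 reads are not told apart from 0, and these limits cover counting error only. Of the sort reporters, Sox2 was at 164, 241 and 224 CPM in NMP cells, 217 and 221 CPM in the Sox2 48 h libraries, 34.2 and 38.5 CPM in the Tbxt 48 h libraries and at most 1.46 CPM in Tbxt 7 d cells. Tbxt was at 284, 431 and 445, 32.1 and 29.3 and 222 and 216 CPM in the first 3 of these groups and at most 2.11 CPM in the last. In Sox2-derived cells at 7 d, Sox2 was at 390.2 and 388 CPM in FGF Sox2+, 199 CPM in FGF/CHIR Sox2+ and 5.03 CPM in FGF/CHIR DN cells. The FGF DN library, sorted as negative for both reporters, held Sox2 at 29.1 CPM, near the Tbxt 48 h libraries. Its Tbxt level was 20.4 CPM, above FGF Sox2+ (4.88 and 8.76 CPM), FGF/CHIR Sox2+ (15.4 CPM) and FGF/CHIR DN cells (1.14 CPM). A level below is given in CPM per library, in order of replicate number. A value with ± is a log2 fold change of log2(CPM + 1) with its standard error, from 1 limma fit of all libraries, adjusted by Benjamini-Hochberg over 12943 tested genes. Rose, fell, higher and lower are used for an adjusted p under 0.05, and the added 1 CPM understates the change of low genes.

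Several libraries stood apart before any collagen was considered. The FGF DN library carried 1924 CPM summed over 12 endoderm markers, 10 of them at 5 CPM or more and none at 0, among them Gata6 at 459.6 CPM, Thbd at 277 CPM and Sox17 at 228 CPM. The same sum was 515 CPM in the FGF/CHIR DN library, 38.6 to 59.7 CPM in Tbxt 7 d cells, where Sox17, Sox7 and 3 others were at 0, and 8.1 to 60.1 CPM in the other groups. The 6 pluripotency markers summed to 483 CPM in FGF DN, 402 CPM in FGF/CHIR DN, 249 to 372 CPM in NMP cells and 8.22 to 192 CPM elsewhere. Klf4 alone was 292 CPM of the FGF DN sum, against 5.29 to 7.15 CPM in NMP cells. Pou5f1 and Dppa5a were at 70.3 and 35.9 CPM in FGF DN, below every NMP library (at least 92.7 and 102 CPM). Nanog and Utf1 stood above every NMP library (21.7 and 40.24 against at most 3.6 and 40.18 CPM), and Zfp42 lay within the NMP range. The rank of FGF DN by this sum thus rests largely on Klf4. The 8 fibroblast and mesenchyme markers, including Prrx1, Twist1 and Pdgfra, summed to 2631 to 3481 CPM in Tbxt 7 d cells, 1219 CPM in FGF/CHIR DN, 283 CPM in FGF/CHIR Sox2+, 216 CPM in FGF DN and at most 87.6 CPM elsewhere. Within Tbxt 7 d cells, replicate 1 carried Acta2, a smooth muscle actin, at 132 CPM against 7.57 and 12.2 CPM, and Sox9, a cartilage regulator, at 109 CPM against 23 and 11.9 CPM.

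Summed over the 44 chains, collagen reads were few in progenitors and became a sizeable part of the library in Tbxt 7 d cells. The sum was 234, 314 and 271 CPM in NMP cells, 443 and 471 CPM in the Sox2 48 h libraries and 359 and 334 CPM in the Tbxt 48 h libraries. At 7 d it was 414 and 839 CPM in FGF Sox2+ cells, 603 CPM in FGF/CHIR Sox2+ cells, 4205 CPM in FGF DN cells, 2658 CPM in FGF/CHIR DN cells and 7852, 5130 and 6440 CPM in Tbxt 7 d cells. The 2 high Sox2-derived libraries were thus both DN, and no Tbxt 7 d library overlapped any other. Their make-up differed: fibrillar chains gave 3936 to 6313 CPM in Tbxt 7 d cells, whereas basement membrane chains gave 3817 CPM in the FGF DN library, of which Col4a1 and Col4a2 were 90% of all collagen reads. The FGF/CHIR DN library held both, with 1464 CPM of fibrillar and 853 CPM of basement membrane chains. These are bulk samples, so fewer cells of a type and less RNA per cell cannot be told apart.

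**Figure D1:**
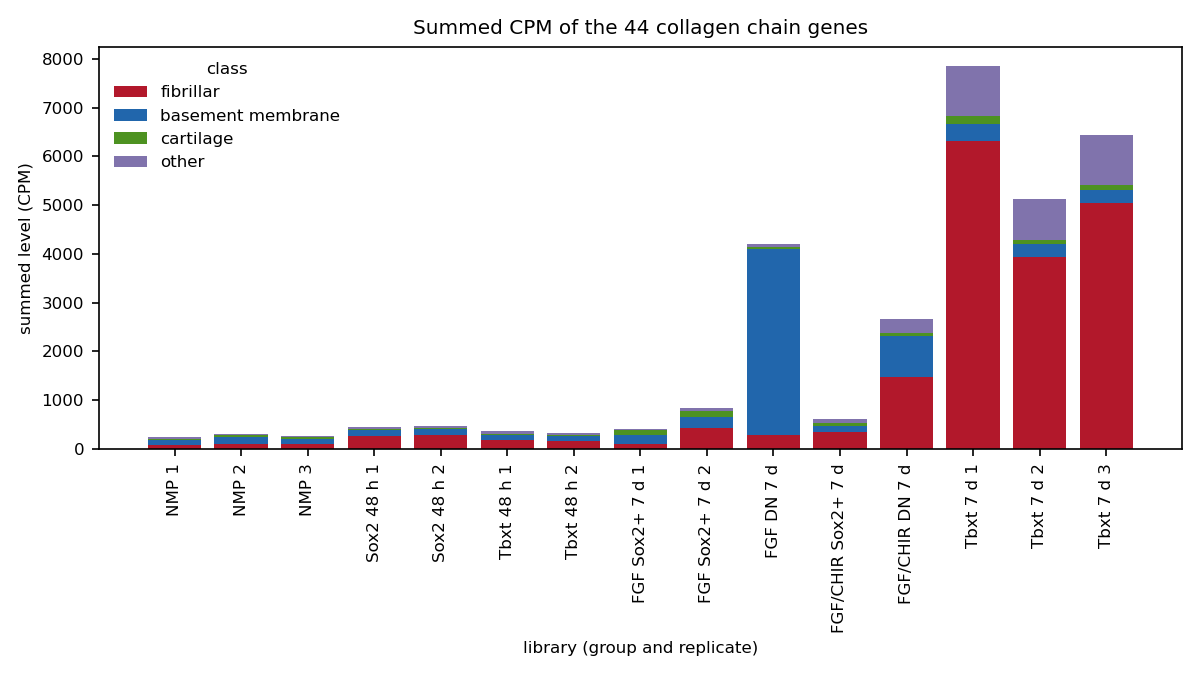
Summed level in CPM (vertical axis, linear, from 0) of the 44 collagen chain genes in each of the 15 libraries, stacked by class. The 3 Tbxt 7 d bars, at 5130 to 7852 CPM, are mostly fibrillar, and the FGF DN bar, at 4205 CPM, is mostly basement membrane.

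Of the 44 chains, 27 reached 5 CPM in at least 2 libraries and were tested: 6 fibrillar, 6 basement membrane, 3 cartilage and 12 others. The 17 that were not tested stayed at or under 5.01 CPM in every library, and Col28a1 was listed at 0 in all 15. Of the 27, 5 passed only through the Tbxt 7 d libraries (Col7a1, Col9a2, Col6a3, Col8a2 and Col25a1), so counts that involve Tbxt 7 d cells are given for the other 22. Of these 22, 15 had their highest group mean in Tbxt 7 d cells: 6 of 6 fibrillar, 0 of 5 basement membrane, 1 of 2 cartilage and 8 of 9 other chains. The same share over all tested genes is not given here, so these counts do not show whether collagens stand out.

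**Figure D2:**
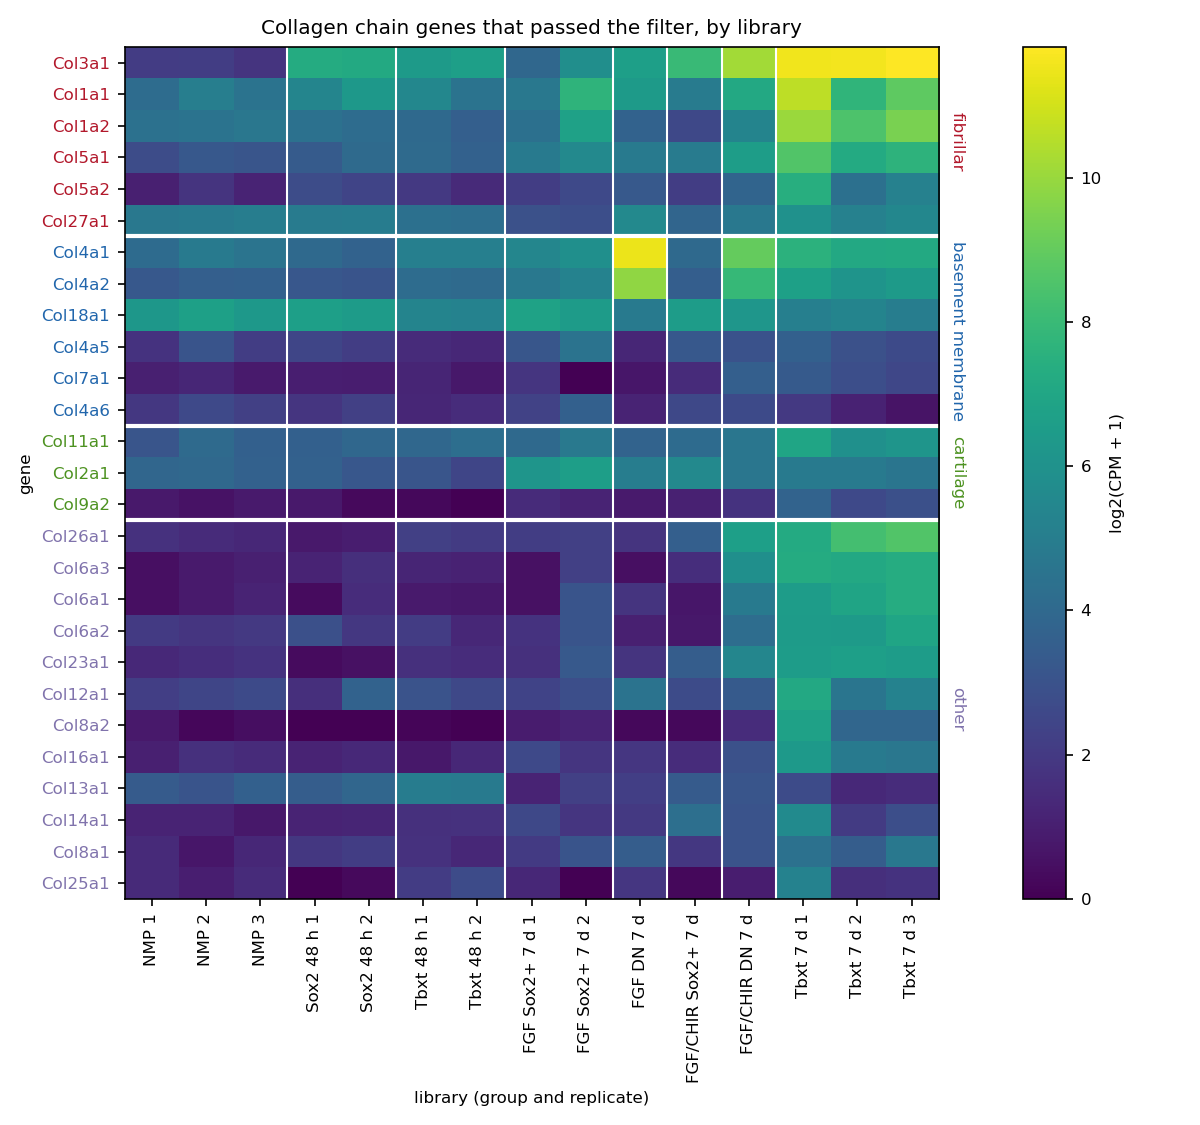
Level, as log2(CPM + 1), of the 27 tested collagen chain genes (rows, by class) in the 15 libraries (columns, by group and replicate). All 6 fibrillar chains and 8 of the 9 other chains that passed the filter without Tbxt 7 d cells have their highest group mean there. The exception is Col13a1, and the share over all tested genes is not given. The Col4a1 and Col4a2 rows are brightest in the FGF DN column.

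In the first 48 h after sorting few chains were called changed, and their shares against NMP cells were near those of all tested genes. Against NMP cells, 1 of the 27 tested chains rose and 0 fell in Sox2 48 h cells, where 2.65% of all tested genes rose and 5.27% fell. At an unadjusted p under 0.05 in limma, 1 was higher and 2 lower there, and a pseudocount of 0.25 gave 1 chain lower. In Tbxt 48 h cells 3 rose and 2 fell, where 7.82% of all tested genes rose and 10.5% fell. Both comparisons share the NMP libraries. Compared directly, Tbxt 48 h cells had 2 chains higher and 1 lower than Sox2 48 h cells, where 2.05% of all tested genes were higher and 1.85% lower. The median log2 fold change of the 27 chains was 0.07, 0.35 and -0.23 in these comparisons, and that of all tested genes was -0.01, -0.02 and 0.02.

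By 7 d more chains had changed. Below, the Tbxt branch stands for Tbxt 7 d against Tbxt 48 h cells, and the Sox2 branch for FGF Sox2+ against Sox2 48 h cells. Of the 22 chains that passed without them, 18 were higher and 1 was lower in Tbxt 7 d than in Tbxt 48 h cells, and with the 5 others the counts were 22 and 1 of 27, where 30.7% of all tested genes were higher and 23.5% lower. In FGF Sox2+ cells against Sox2 48 h cells 7 of 27 were higher and 3 lower, where 18.2% of all tested genes were higher and 6.51% lower. Scaling by the median of ratios moved the median gene of that second comparison by -0.16 and changed its split over all genes from 2361 higher and 842 lower to 1720 and 1365, with 6 chains higher and 3 lower. The change from 48 h to 7 d itself differed between the branches for 13 of the 22 chains, 12 with a larger gain in Tbxt-derived cells, and for 17 of 27 in all (16 and 1), where 14.2% of all tested genes had a larger and 19.4% a smaller change in Tbxt-derived cells. This test sets FGF/CHIR cultures sorted as DN beside FGF cultures sorted as Sox2+, so source, medium and sort gate cannot be told apart. The median change over the 22 chains was 2.78 in the Tbxt branch and 0.91 in the Sox2 branch, against 0.09 and 0.17 over all tested genes.

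**Figure D3:**
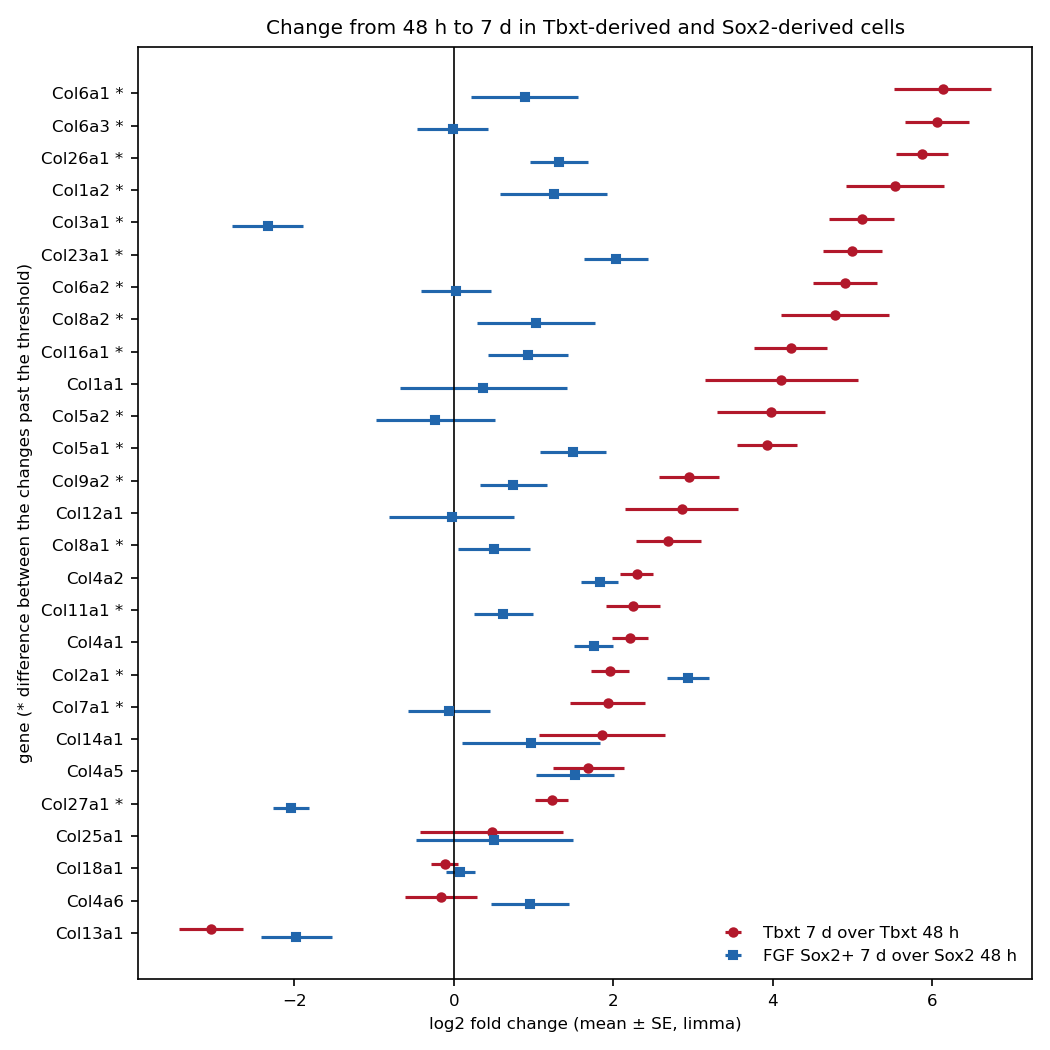
Log2 fold change from 48 h to 7 d (horizontal axis, mean ± SE from limma) of each of the 27 tested chains in Tbxt-derived cells (red circles) and Sox2-derived FGF Sox2+ cells (blue squares). Stars mark the 17 chains whose changes differed, and Col3a1 and Col27a1 lie on opposite sides of 0 in the branches.

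At 7 d, Tbxt 7 d cells had 16 of the 22 chains higher and 3 lower than FGF Sox2+ cells (20 and 3 of 27), where 21.1% of all tested genes were higher and 26.5% lower. Against the FGF/CHIR DN library, which shares their medium and sort gate, 6 of 22 were higher and 3 lower (7 and 3 of 27), where 7.88% of all tested genes were higher and 8.86% lower. With only these 2 groups in the fit, 8 of the 10 calls ended (adjusted p from 0.0562 to 0.259), and those of Col4a1 and Col6a2 stayed. Among Sox2-derived cultures, averaged over the media, DN cells had 7 of 27 chains higher and 2 lower than Sox2+ cells, where 7.12% of all tested genes were higher and 6.99% lower. Scaling by the median of ratios moved the median gene of this comparison by 0.12 and its split over all genes from 921 higher and 905 lower to 1206 and 611, and left the chains at 7 and 2. Averaged over the sort gates, FGF/CHIR cells had 6 chains higher and 2 lower than FGF cells, where 5.94% of all tested genes were higher and 7.86% lower. These comparisons share libraries, and in the last 2 every group but FGF Sox2+ enters with 1 library.

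Among fibrillar chains, Col3a1, the single chain of type III collagen, moved first and took the most collagen reads in Tbxt 7 d cells. It stood at 3.24, 3.46 and 2.44 CPM in NMP cells, 154 and 142 CPM in the Sox2 48 h libraries and 84.5 and 102 CPM in the Tbxt 48 h libraries. Libraries of the 48 h groups did not overlap those of NMP cells in either arm, and Col3a1 was the only chain of the 27 that rose in both, by 5.21 ± 0.41 (adjusted p = 4.18e-05) in Sox2 48 h and 4.54 ± 0.41 (adjusted p = 5.43e-05) in Tbxt 48 h cells. The 48 h groups were not called different from each other (-0.67 ± 0.45, adjusted p = 0.437). At 7 d it was at 14.2 and 56.3 CPM in FGF Sox2+, 259 CPM in FGF/CHIR Sox2+, 102 CPM in FGF DN, 1152 CPM in FGF/CHIR DN and 3023, 3155 and 3599 CPM in Tbxt 7 d cells. From 48 h to 7 d Col3a1 fell in FGF Sox2+ cells (-2.33 ± 0.45, adjusted p = 0.0041) and rose in Tbxt 7 d cells (5.12 ± 0.41, adjusted p = 2.86e-06), and the difference between these changes was 7.45 ± 0.60 (adjusted p = 1.79e-05). Both Sox2-derived FGF/CHIR libraries, unlike FGF Sox2+ cells, lay above both Sox2 48 h libraries. The call of the fall ended when the fit held only the 2 groups (adjusted p = 0.134).

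Among Sox2-derived 7 d cells, Col3a1 differed by medium. Both FGF/CHIR libraries lay above both kinds of FGF library, and the averaged difference was 3.31 ± 0.42 (adjusted p = 0.000568). With only the compared groups in the fit the call ended (adjusted p = 0.427). Within the Sox2+ gate it was 3.14 ± 0.55 (adjusted p = 0.00569) and within the DN gate 3.49 ± 0.63 (adjusted p = 0.00774). Between gates, DN exceeded Sox2+ cells by 1.97 ± 0.42 (adjusted p = 0.0112) on average, by 1.80 ± 0.55 (adjusted p = 0.0488) in FGF and by 2.15 ± 0.63 (adjusted p = 0.105) in FGF/CHIR cultures; the last was not past the threshold. The call of the average ended in the same way (adjusted p = 0.57). Tbxt 7 d and FGF/CHIR DN cells were not called different (1.5 ± 0.52, adjusted p = 0.0733). Of all collagen reads, Col3a1 took 0.899 to 1.38% in NMP, 34.7 and 30.2% in Sox2 48 h and 23.5 and 30.4% in Tbxt 48 h cells. At 7 d its share was 3.44 and 6.72% in FGF Sox2+ and 2.42% in FGF DN cells. It was 42.9% in FGF/CHIR Sox2+, 43.3% in FGF/CHIR DN and 38.5, 61.5 and 55.9% in Tbxt 7 d cells.

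The 2 chains of type I collagen, Col1a1 and Col1a2, were already present in progenitors and rose late. Col1a1 was at 17.4, 32 and 21.5 CPM in NMP, 40.4 and 78.6 CPM in Sox2 48 h and 42.9 and 21.8 CPM in Tbxt 48 h cells, and Col1a2 at 20.4, 21.6 and 25, 20.4 and 17.1 and 15.4 and 10.8 CPM. Neither was called changed in either 48 h group. In Tbxt 7 d cells Col1a1 was at 1610.5, 210.5 and 476 CPM and Col1a2 at 1053, 369 and 685 CPM, with replicate 1 highest for both. The rise over Tbxt 48 h cells was 4.11 ± 0.96 (adjusted p = 0.00525) for Col1a1 and 5.53 ± 0.61 (adjusted p = 4.3e-05) for Col1a2. Without Tbxt 48 h replicate 2 the first call ended (adjusted p = 0.0504), and without Tbxt 7 d replicate 1, the one with Acta2 above the other 2, the values were 3.33 (adjusted p = 0.0202) and 5.18 (adjusted p = 0.000186).

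Type I levels were uneven among Sox2-derived cells at 7 d. Col1a1 was at 25.5 and 207 CPM in the FGF Sox2+ libraries and Col1a2 at 19.3 and 108 CPM, with the shallow replicate 2 higher for both. The single libraries had Col1a1 at 29.6 CPM (FGF/CHIR Sox2+), 86.3 CPM (FGF DN) and 138 CPM (FGF/CHIR DN), and Col1a2 at 4.93, 12 and 39.8 CPM. Tbxt 7 d cells exceeded FGF Sox2+ cells by 2.88 ± 0.96 (adjusted p = 0.0328) for Col1a1 and 3.78 ± 0.61 (adjusted p = 0.000662) for Col1a2. The Col1a1 call ended with only the compared groups in the fit (adjusted p = 0.112), without FGF Sox2+ replicate 1 (adjusted p = 0.268), without Tbxt 7 d replicate 1 (0.108) or without Tbxt 7 d replicate 3 (0.0616). Against FGF/CHIR DN cells only Col1a2 of the pair was called higher, at 3.98 ± 0.77 (adjusted p = 0.00785), beside 1.98 ± 1.21 (adjusted p = 0.295) for Col1a1. The ratio of Col1a1 to Col1a2 reads ranged from 0.57 to 7.21 over the libraries: it was 1.53, 0.57 and 0.694 in Tbxt 7 d cells, 3.46 in FGF/CHIR DN, 6 in FGF/CHIR Sox2+ and 7.21 in FGF DN cells.

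Col5a1 and Col5a2, chains of type V collagen, which joins type I fibrils and limits their width, were also highest in Tbxt 7 d cells. Col5a1 was at 5.7, 8.52 and 7.78 CPM in NMP, 9.34 and 15.8 CPM in Sox2 48 h, 16.1 and 11.8 CPM in Tbxt 48 h, 28.2 and 46.3 CPM in FGF Sox2+ and 394, 147 and 196 CPM in Tbxt 7 d cells. It was at 28.9 CPM in FGF/CHIR Sox2+, 27 CPM in FGF DN and 95.5 CPM in FGF/CHIR DN cells. Col5a1 rose in both branches, by 1.5 ± 0.42 (adjusted p = 0.0224) in FGF Sox2+ and 3.93 ± 0.38 (adjusted p = 6.37e-06) in Tbxt 7 d cells, and more in the latter (2.43 ± 0.56). The first of these calls ended without Sox2 48 h replicate 1 (adjusted p = 0.144) or FGF Sox2+ replicate 2 (0.157). Col5a2 was at 1.04 to 5.81 CPM in NMP and 48 h cells, at 3.4 to 13 CPM in Sox2-derived 7 d cells and at 171, 19.4 and 35.8 CPM in Tbxt 7 d cells, a rise of 3.98 ± 0.68 (adjusted p = 0.000536). Without replicate 1 that rise was 3.09 (adjusted p = 9.08e-06).

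Col27a1, a chain of the short fibrillar type XXVII known from cartilage, was the one fibrillar chain beside Col3a1 that fell in the Sox2 branch. It was at 25.9, 27.3 and 31.2 CPM in NMP, 28.8 and 30.4 CPM in Sox2 48 h and 19.4 and 18.2 CPM in Tbxt 48 h cells. At 7 d it was at 6.58 and 6.26 CPM in FGF Sox2+, 13.5 CPM in FGF/CHIR Sox2+, 45.8 CPM in FGF DN, 25.1 CPM in FGF/CHIR DN and 61.4, 35.2 and 43.5 CPM in Tbxt 7 d cells. It fell in FGF Sox2+ cells (-2.04 ± 0.23, adjusted p = 6.64e-05), rose in Tbxt 7 d cells (1.23 ± 0.21, adjusted p = 0.000296), and was higher in DN than Sox2+ cells (1.76 ± 0.21, adjusted p = 0.000165). In FGF cultures alone that last difference was 2.66 ± 0.28 (adjusted p = 5.89e-05) and in FGF/CHIR cultures alone 0.85 ± 0.32 (adjusted p = 0.207), not past the threshold. Tbxt 7 d exceeded FGF/CHIR DN cells in Col27a1 (0.83 ± 0.26, adjusted p = 0.0474), a call that ended under median-of-ratios scaling (adjusted p = 0.0521) and without Tbxt 7 d replicate 1 (0.0592) or replicate 3 (0.0829). All 6 tested fibrillar chains were higher in Tbxt 7 d than in Tbxt 48 h and FGF Sox2+ cells. The remaining 2, Col5a3 and Col24a1, did not pass the filter and stayed at or under 3.76 CPM.

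**Figure D4:**
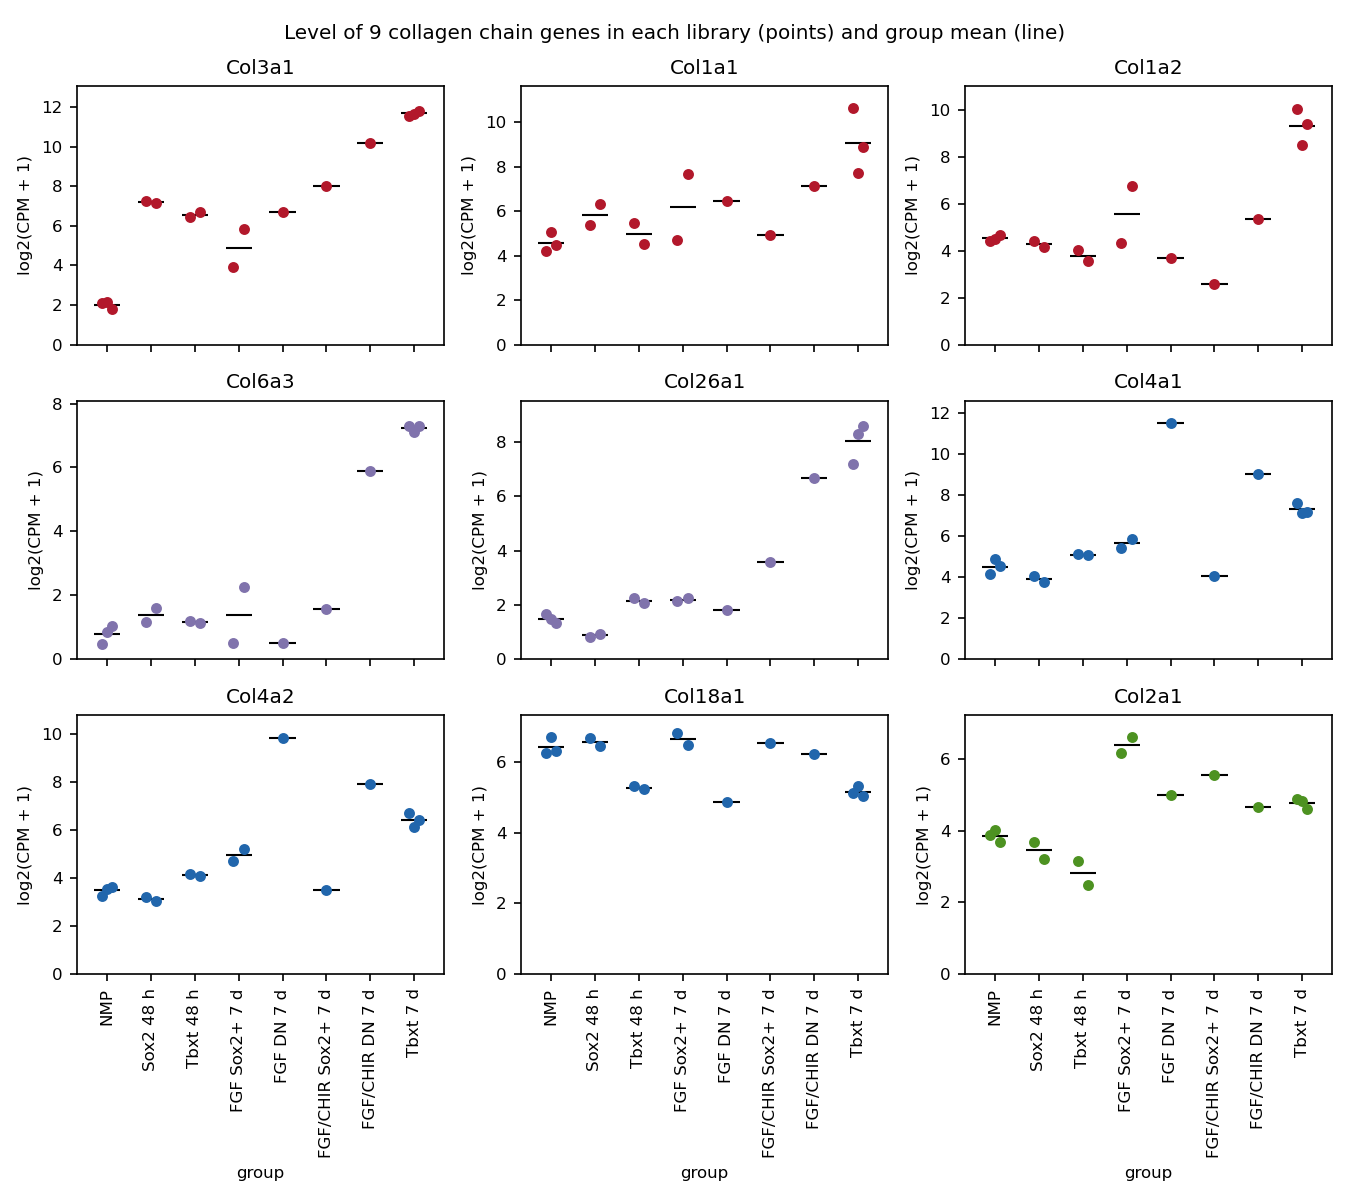
Level, as log2(CPM + 1), of 9 collagen chain genes in each library (points) by group, with group means (lines). Col3a1 leaves the NMP level at 48 h, Col1a1, Col1a2, Col6a3 and Col26a1 are highest in Tbxt 7 d cells, Col4a1 and Col4a2 in FGF DN cells, and Col2a1 in FGF Sox2+ cells.

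In the basement membrane class, the type IV chains Col4a1 and Col4a2, which are found in nearly all basement membranes, had the largest differences of the 27 chains between DN and Sox2+ cells. On GRCm38 their genes lie head to head, and the starts used here overlap by 22 bases, with that of Col4a1 at chr8:11312826. With the start of the RefSeq gene span of Col4a1, at 11312889, the overlap is longer. Col4a1 was at 16.5, 28.1 and 22.2 CPM in NMP, 15.4 and 12.3 CPM in Sox2 48 h and 33.5 and 32.7 CPM in Tbxt 48 h cells, and Col4a2 at 8.56, 10.8 and 11.5, 8.33 and 7.31 and 16.9 and 16.2 CPM. The Tbxt 48 h libraries did not overlap the Sox2 48 h libraries, which had the lower levels. The difference was 1.21 ± 0.25 (adjusted p = 0.0164) for Col4a1 and 0.99 ± 0.23 (adjusted p = 0.0307) for Col4a2. Against NMP cells only Col4a2 in Tbxt 48 h cells was called (0.65 ± 0.21, adjusted p = 0.0497). Leaving out Sox2 48 h replicate 2, or either Tbxt 48 h replicate, ended the direct calls of both genes (adjusted p from 0.0719 to 0.249), and leaving out Sox2 48 h replicate 1 ended that of Col4a2 (0.0708). Leaving out any of the 5 libraries concerned ended the call of Col4a2 against NMP cells (adjusted p from 0.0703 to 0.213).

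At 7 d Col4a1 was at 41.4 and 57.6 CPM in FGF Sox2+, 15.3 CPM in FGF/CHIR Sox2+, 516 CPM in FGF/CHIR DN, 2864 CPM in FGF DN and 194, 138 and 145 CPM in Tbxt 7 d cells. Col4a2 was at 25.3 and 36.3, 10.4, 241, 922 and 105, 68.7 and 85.1 CPM in the same order. Both DN libraries of Sox2-derived cells thus exceeded all 13 other libraries. DN cells were higher than Sox2+ cells by 5.42 ± 0.23 (adjusted p = 9.26e-08) for Col4a1 and 4.65 ± 0.22 (adjusted p = 1.33e-07) for Col4a2. The differences were called in each medium alone: 5.84 ± 0.30 (adjusted p = 3.48e-07) and 4.88 ± 0.28 (adjusted p = 7.46e-07) in FGF, and 4.99 ± 0.35 (adjusted p = 1.25e-05) and 4.41 ± 0.33 (adjusted p = 1.34e-05) in FGF/CHIR. These are the libraries with the high endoderm marker sums, 1924 and 515 CPM against at most 60.1 CPM in the Sox2+ libraries. FGF DN also had the highest sums of 6 endothelium markers (62.3 CPM, at most 9.75 CPM elsewhere) and 4 smooth muscle markers (378 CPM, at most 207 CPM elsewhere). In FGF/CHIR DN these sums were 2.51 and 186 CPM. The endothelium sum of FGF DN rests mostly on Cdh5 (43.5 CPM) and Tek (11.8 CPM), with Pecam1, Emcn and Erg at or under 0.825 CPM. Its smooth muscle sum rests mostly on Acta2 (309 CPM) and Tagln (63.4 CPM), with Cnn1 at 5.37 and Myh11 at 0.206 CPM. The part of any of these cell types in the difference was not tested.

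Both type IV chains were lower in FGF/CHIR than in FGF cultures, by -2.04 ± 0.23 (adjusted p = 0.000124) for Col4a1 and -1.70 ± 0.22 (adjusted p = 0.000266) for Col4a2, and the calls held within the Sox2+ gate (-1.61 ± 0.30 and -1.46 ± 0.28) and the DN gate (-2.47 ± 0.35 and -1.93 ± 0.33). From 48 h to 7 d both rose in FGF Sox2+ cells (1.75 ± 0.25 and 1.83 ± 0.23) and in Tbxt 7 d cells (2.21 ± 0.23 and 2.29 ± 0.21), with adjusted p at or under 0.000352. The difference between these changes was not called (0.46 ± 0.34, adjusted p = 0.313 and 0.46 ± 0.31, adjusted p = 0.274). Tbxt 7 d cells exceeded FGF Sox2+ cells (1.66 ± 0.23 and 1.46 ± 0.21) and stood below FGF/CHIR DN cells (-1.71 ± 0.29, adjusted p = 0.00184 and -1.49 ± 0.27, adjusted p = 0.00281). The ratio of Col4a1 to Col4a2 reads stayed between 1.48 and 2.61 in 14 libraries and was 3.11 in FGF DN.

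Col18a1, the chain of type XVIII collagen whose tail is released as endostatin, followed another course. It was at 75.4, 103 and 78.6 CPM in NMP, 101 and 87.1 CPM in Sox2 48 h, 111 and 88.9 CPM in FGF Sox2+, 91.7 CPM in FGF/CHIR Sox2+ and 73.4 CPM in FGF/CHIR DN cells. It was at 38.8 and 36.5 CPM in Tbxt 48 h, 33.8, 39 and 31.6 CPM in Tbxt 7 d and 28.1 CPM in FGF DN cells. All 6 libraries of these last groups lay below all 9 others. Tbxt 48 h cells were lower than NMP cells (-1.15 ± 0.17, adjusted p = 0.000655) and lower than Sox2 48 h cells (-1.30 ± 0.19, adjusted p = 0.00183). No change was called from 48 h to 7 d in either branch (-0.11 ± 0.17, adjusted p = 0.6 in the Tbxt and 0.08 ± 0.19, adjusted p = 0.779 in the Sox2 branch), and Tbxt 7 d stayed below FGF Sox2+ cells (-1.49 ± 0.17, adjusted p = 1.83e-05) and below FGF/CHIR DN cells (-1.06 ± 0.22, adjusted p = 0.00606). DN cells were lower than Sox2+ cells by -1.05 ± 0.18 (adjusted p = 0.00163) on average, by -1.79 ± 0.23 (adjusted p = 0.000248) in FGF and by -0.32 ± 0.27 (adjusted p = 0.672) in FGF/CHIR cultures, the last not past the threshold. The higher level in FGF/CHIR than FGF cultures (0.62 ± 0.18, adjusted p = 0.034) came with 1.36 ± 0.27 (adjusted p = 0.00779) within the DN gate and -0.12 ± 0.23 (adjusted p = 0.804) within the Sox2+ gate, where the sign turned. The call ended with only the compared groups in the fit (adjusted p = 0.0555) and without FGF Sox2+ replicate 2 (adjusted p = 0.0739).

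The lesser type IV chains and type VII were low. Col4a5 and Col4a6, neighbours on the X chromosome, were at 1.44 to 21.3 CPM and 0.527 to 11.3 CPM. Both were highest in FGF Sox2+ replicate 2, at 21.3 and 11.3 CPM against 8.07 and 4.03 CPM in replicate 1. Col4a5 rose in FGF Sox2+ cells (1.52 ± 0.49, adjusted p = 0.039), a call that ended without Sox2 48 h replicate 1 or 2 or without FGF Sox2+ replicate 2 (adjusted p from 0.0906 to 0.297) and under median-of-ratios scaling (adjusted p = 0.0542), and in Tbxt 7 d cells (1.69 ± 0.45, adjusted p = 0.0065). Col4a6 was lower in Tbxt 7 d than FGF Sox2+ cells (-1.74 ± 0.45, adjusted p = 0.00668), a call that ended without FGF Sox2+ replicate 2 (adjusted p = 0.0972). Col7a1, the chain of the anchoring fibrils of epithelia, was at 0 to 2.55 CPM in 11 libraries, 9.32, 6.14 and 4.74 CPM in Tbxt 7 d cells and 11 CPM in FGF/CHIR DN cells, and it was higher in FGF/CHIR than FGF cultures (1.72 ± 0.48, adjusted p = 0.0324), with 0.54 ± 0.63 (adjusted p = 0.644) within the Sox2+ gate. Col4a3, Col4a4 and Col15a1 stayed at or under 0.907 CPM and were not tested.

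In the cartilage class, Col2a1 is the chain of type II collagen, which in the embryo is also made by notochord and neuroepithelium. It was at 13.7, 15.1 and 11.7 CPM in NMP, 11.9 and 8.23 CPM in Sox2 48 h and 7.8 and 4.56 CPM in Tbxt 48 h cells, lower in the last than in NMP cells (-1.05 ± 0.24, adjusted p = 0.0089), a call that ended without Tbxt 48 h replicate 2 (adjusted p = 0.166). At 7 d it was at 70.5 and 96.4 CPM in FGF Sox2+, 46.1 CPM in FGF/CHIR Sox2+, 31.2 CPM in FGF DN, 24.2 CPM in FGF/CHIR DN and 28.2, 27.3 and 23.4 CPM in Tbxt 7 d cells. The 3 Sox2+ libraries were the highest of the series, with no overlap with any other. Col2a1 rose in both branches (2.94 ± 0.26, adjusted p = 1.3e-05 in FGF Sox2+ and 1.96 ± 0.24, adjusted p = 2.08e-05 in Tbxt 7 d cells) and was lower in DN than Sox2+ cells (-1.14 ± 0.24, adjusted p = 0.00805). Within FGF cultures this difference was -1.38 ± 0.32 (adjusted p = 0.0107) and within FGF/CHIR cultures -0.90 ± 0.37 (adjusted p = 0.253), not past the threshold. Tbxt 7 d cells stood below FGF Sox2+ cells (-1.61 ± 0.24, adjusted p = 0.000124), and Col2a1 was the one chain of the 27 whose gain was smaller in the Tbxt branch (-0.97 ± 0.35, adjusted p = 0.0481). That call ended under median-of-ratios scaling (adjusted p = 0.0616), with only the compared groups in the fit (0.0713) and without any one of 5 libraries (adjusted p from 0.0692 to 0.19), which were Sox2 48 h replicate 2, Tbxt 48 h replicate 1, FGF Sox2+ replicate 2 and Tbxt 7 d replicates 2 and 3.

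Col11a1, a chain of type XI collagen that is built into type II fibrils and is also made outside cartilage, was highest in Tbxt 7 d cells. It was at 7.78 to 18.4 CPM in NMP and 48 h cells, at 12.6 to 26.3 CPM in Sox2-derived 7 d cells and at 122, 59.4 and 71.1 CPM in Tbxt 7 d cells, with no overlap. The rise in the Tbxt branch was 2.24 ± 0.34 (adjusted p = 0.000143), and Tbxt 7 d exceeded FGF/CHIR DN cells by 1.73 ± 0.43 (adjusted p = 0.0174). The Col11a1 call over FGF/CHIR DN cells ended with replicate number as a block and with only the compared groups in the fit. Col9a2, a type IX chain, was at or under 2.29 CPM outside Tbxt 7 d cells and at 12.5, 5.15 and 6.32 CPM in them. Col9a1, Col9a3, Col10a1 and Col11a2 were not tested and stayed at or under 5.01 CPM. Of 7 chondrocyte markers, Acan, Snorc and Comp were at 0 in all Tbxt 7 d libraries and at or under 0.778 CPM in all others, and the list summed to 12.6 to 133 CPM in Tbxt 7 d cells, 46.6 to 95.2 CPM in FGF Sox2+ cells and 7.39 to 53.7 CPM elsewhere, with Sox9 at 109, 23 and 11.9 CPM in Tbxt 7 d cells.

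Among the other chains, the 3 tested chains of the type VI microfilament were highest in Tbxt 7 d cells. Col6a1 was at 0.252 to 1.83 CPM in NMP and 48 h cells, 0.425 and 7.51 CPM in FGF Sox2+, 0.617 CPM in FGF/CHIR Sox2+, 2.48 CPM in FGF DN and 28.1 CPM in FGF/CHIR DN cells. In Tbxt 7 d cells it was at 92.9, 119.6 and 160.1 CPM, Col6a2 at 87.6, 85.5 and 121 CPM and Col6a3 at 155, 138 and 156 CPM, with every library above all others in the series for each gene. Col6a2 and Col6a3 were at 17.6 and 58.5 CPM in the FGF/CHIR DN library and at or under 7.51 and 3.76 CPM in every other library outside Tbxt 7 d. The rises in the Tbxt branch were 6.13 ± 0.61 (adjusted p = 7.33e-06), 4.91 ± 0.40 (adjusted p = 7.81e-07) and 6.06 ± 0.40 (adjusted p = 1.57e-07). Col6a3 was tested only through Tbxt 7 d cells. In the Sox2 branch the changes were not called (0.89 ± 0.67, 0.03 ± 0.44 and -0.01 ± 0.44, adjusted p at least 0.357), and the difference between the branches was called for all 3.

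Among Sox2-derived cells, type VI chains were high in 1 library, FGF/CHIR DN. In FGF/CHIR cultures alone, DN exceeded Sox2+ cells by 4.17 ± 0.95 (adjusted p = 0.0327) for Col6a1, 3.44 ± 0.62 (adjusted p = 0.00823) for Col6a2 and 4.33 ± 0.63 (adjusted p = 0.00188) for Col6a3. In FGF cultures alone the values were -0.00 ± 0.82 (adjusted p = 1), -1.39 ± 0.54 (adjusted p = 0.101) and -0.88 ± 0.54 (adjusted p = 0.313), and none was called. The averages over the media, 2.08 ± 0.63 for Col6a1 and 1.73 ± 0.41 for Col6a3, thus rest on the FGF/CHIR DN library. With only the compared groups in the fit, the Col6a1 call ended (adjusted p = 0.155). The FGF/CHIR DN library also carried 1219 CPM of fibroblast and mesenchyme markers against 216 CPM in FGF DN; their part was not tested. Between media, Col6a3 was higher in FGF/CHIR by 2.79 ± 0.41 (adjusted p = 0.000799) on average, 5.40 ± 0.63 (adjusted p = 0.000349) in the DN gate and 0.18 ± 0.54 (adjusted p = 0.877) in the Sox2+ gate. Tbxt 7 d exceeded FGF/CHIR DN cells in Col6a2 (2.40 ± 0.50, adjusted p = 0.00716), while Col6a1 (2.07 ± 0.77, adjusted p = 0.0894) and Col6a3 (1.34 ± 0.51, adjusted p = 0.0934) were not called. Col6a4, Col6a5 and Col6a6 stayed at or under 2.21 CPM.

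Col26a1, a small collagen with little known function, was also highest in Tbxt 7 d and next in FGF/CHIR DN cells. It was at 2.2, 1.77 and 1.51 CPM in NMP, 0.757 and 0.914 CPM in Sox2 48 h, 3.75 and 3.21 CPM in Tbxt 48 h, 3.4 and 3.76 CPM in FGF Sox2+ and 2.48 CPM in FGF DN cells. It was at 11 CPM in FGF/CHIR Sox2+, 101 CPM in FGF/CHIR DN and 146, 313 and 385 CPM in Tbxt 7 d cells, where replicate 1 was lowest, unlike Col1a1. The rise in the Tbxt branch was 5.87 ± 0.33 (adjusted p = 4.03e-08), and that in FGF Sox2+ cells, 1.32 ± 0.36 (adjusted p = 0.0185), lost its call without any 1 of the 4 libraries (adjusted p from 0.051 to 0.0852). FGF/CHIR exceeded FGF cells by 3.14 ± 0.34 (adjusted p = 8.88e-05) on average, 4.88 ± 0.51 (adjusted p = 0.00017) in the DN gate and 1.39 ± 0.44 (adjusted p = 0.0702) in the Sox2+ gate, the last not past the threshold. DN exceeded Sox2+ cells by 1.35 ± 0.34 (adjusted p = 0.0189) on average and 3.09 ± 0.51 (adjusted p = 0.00455) in FGF/CHIR cultures, with -0.40 ± 0.44 (adjusted p = 0.606) in FGF cultures. Tbxt 7 d over FGF/CHIR DN cells gave 1.35 ± 0.42 (adjusted p = 0.0423), a call that ended under median-of-ratios scaling (adjusted p = 0.0523) and without Tbxt 7 d replicate 2 (0.105) or replicate 3 (0.117).

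Of the transmembrane chains, Col23a1 and Col13a1 ran in opposite directions. Col23a1 was at 0.252 to 2.32 CPM in NMP and 48 h cells, 2.12 and 8.76 CPM in FGF Sox2+, 10.3 CPM in FGF/CHIR Sox2+, 2.48 CPM in FGF DN, 41.6 CPM in FGF/CHIR DN and 92, 99.6 and 92.4 CPM in Tbxt 7 d cells. It rose in both branches (5.00 ± 0.37, adjusted p = 3.49e-07 in Tbxt 7 d and 2.03 ± 0.40, adjusted p = 0.0034 in FGF Sox2+ cells), and FGF/CHIR exceeded FGF cells by 2.32 ± 0.38 (adjusted p = 0.00145), with 3.62 ± 0.57 (adjusted p = 0.00217) in the DN and 1.03 ± 0.50 (adjusted p = 0.224) in the Sox2+ gate. Col13a1, found at cell adhesion sites, was at 9.46, 7.4 and 11.5 CPM in NMP, 10.3 and 13.7 CPM in Sox2 48 h and 30.4 and 27.7 CPM in Tbxt 48 h cells, its highest group. It rose over NMP cells there (1.54 ± 0.40, adjusted p = 0.0195), a call that ended without NMP replicate 1, NMP replicate 2 or either Tbxt 48 h replicate (adjusted p from 0.0526 to 0.125). By 7 d it was at 5.53, 1.58 and 1.84 CPM in Tbxt 7 d, 1.27 and 3.76 CPM in FGF Sox2+, 3.51 CPM in FGF DN, 9.66 CPM in FGF/CHIR Sox2+ and 7.54 CPM in FGF/CHIR DN cells. It fell in both Tbxt 7 d and FGF Sox2+ cells (-3.05 ± 0.40, adjusted p = 4.47e-05 and -1.97 ± 0.44, adjusted p = 0.00657). It was the only chain of the 27 that fell in the Tbxt branch. The FGF Sox2+ call ended without Sox2 48 h replicate 2 (adjusted p = 0.0637) or FGF Sox2+ replicate 1 (0.0555).

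A further set of chains stood high in Tbxt 7 d replicate 1 above the other 2. Col12a1, a fibril-associated chain of stretched connective tissue, was at 138, 23.2 and 36.7 CPM in Tbxt 7 d cells and at 2.02 to 22 CPM in all other libraries. Col16a1 was at 80.1, 26.9 and 25 CPM against 0.709 to 6.63 CPM elsewhere, and Col8a2, a chain of the type VIII network of vessels and cornea, at 107, 14.1 and 14 CPM against 0 to 1.83 CPM. Col14a1 was at 49.8, 3.17 and 6.06 CPM with 19 CPM in FGF/CHIR Sox2+ cells, and Col25a1 at 37, 1.98 and 2.37 CPM with at most 5.4 CPM elsewhere. Col8a2 and Col25a1 were tested only through Tbxt 7 d cells. Tbxt 7 d exceeded Tbxt 48 h cells in Col12a1 (2.86 ± 0.71, adjusted p = 0.00613), Col16a1 (4.23 ± 0.46, adjusted p = 8.37e-06) and Col8a2 (4.79 ± 0.68, adjusted p = 8.6e-05), and not past the threshold in Col14a1 (1.86 ± 0.79, adjusted p = 0.0677) and Col25a1 (0.48 ± 0.90, adjusted p = 0.68). Without replicate 1, the first 3 were 2.12 (adjusted p = 0.0046), 3.70 (adjusted p = 1.28e-06) and 3.84 (adjusted p = 5.62e-07). In that fit 22 of 26 tested chains were higher and 1 lower, where 3952 and 3268 of 12842 tested genes were. The 22 include Col6a3, Col7a1, Col8a2 and Col9a2, tested only through Tbxt 7 d cells. Leaving out Tbxt 48 h replicate 2 ended the Col12a1 call (adjusted p = 0.0547). Replicate 1 is also the library with Acta2 and Sox9 above the other 2, and their part in these values was not tested. Over FGF/CHIR DN cells, Tbxt 7 d cells were higher in Col8a2 (3.35 ± 0.85, adjusted p = 0.0196) and Col16a1 (2.35 ± 0.58, adjusted p = 0.0161). Col8a1 was at 20.1, 10.3 and 25.3 CPM, with replicate 3 highest, and rose by 2.69 ± 0.41 (adjusted p = 0.000137). The 8 chains of this class that were not tested stayed at or under 2.89 CPM.

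Collagen chains are hydroxylated and glycosylated in the endoplasmic reticulum, folded with the help of the chaperone Serpinh1, carried out in enlarged COPII vesicles, trimmed by propeptidases and cross-linked by lysyl oxidases. Of 60 genes listed for these steps, for receptors and for turnover, 45 were tested. Of these, P4ha3, P3h3, Lox, Loxl1 and Loxl3 passed the filter only through the Tbxt 7 d libraries, so counts that involve those cells are given for the other 40. In Tbxt 7 d over Tbxt 48 h cells 33 of the 40 were higher and 3 lower, with a median of 1.65 against 0.09 over all tested genes. Of all tested genes 30.7% were higher and 23.5% lower. In FGF Sox2+ over Sox2 48 h cells 9 of the 45 were higher and 3 lower, shares near the 18.2% and 6.51% of all tested genes. The change differed between the branches for 30 of the 40, 28 of them with a larger gain in Tbxt-derived cells, where 14.2% of all tested genes had a larger and 19.4% a smaller change. Over NMP cells, 7 of the 45 were higher and 1 lower in Sox2 48 h cells, where 2.65% and 5.27% of all tested genes were. In Tbxt 48 h cells 9 were higher and 2 lower, where 7.82% and 10.5% of all tested genes were. The lists overlap in function but share no gene, and the lists were drawn up with results of these data known.

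By step, against the same 30.7% of all tested genes, 8 of the 11 hydroxylation and glycosylation genes that passed without Tbxt 7 d cells rose in the Tbxt branch. The largest gains of these were in the lysyl hydroxylase Plod1 (2.46 ± 0.32, adjusted p = 3.99e-05), P3h4 (2.39 ± 0.31, adjusted p = 3.68e-05) and P3h1 (1.83 ± 0.23, adjusted p = 3.17e-05). The prolyl hydroxylase subunit P4ha3, tested only through Tbxt 7 d cells, was at 0 in both Tbxt 48 h libraries and at 59.7, 9.9 and 18 CPM in Tbxt 7 d cells. Of 10 folding and secretion genes 9 rose, led by the chaperone Fkbp14 (3.44 ± 0.28, adjusted p = 7.7e-07), the transcription factor Creb3l1 (3.42 ± 0.35, adjusted p = 5.03e-06) and Fkbp10 (2.85 ± 0.30, adjusted p = 6.79e-06), and Mia2 fell (-0.63 ± 0.17, adjusted p = 0.00729). Serpinh1, the collagen chaperone HSP47, went from 835 and 718 CPM to 1819, 2483 and 2525 CPM (1.54 ± 0.16, adjusted p = 5.01e-06). Of 5 propeptide and cross-linking genes that passed without Tbxt 7 d cells 4 rose, led by the propeptidase enhancer Pcolce (3.96 ± 0.29, adjusted p = 3.74e-07), the lysyl oxidase Loxl2 (3.86 ± 0.35, adjusted p = 2.02e-06) and the propeptidase Bmp1 (2.02 ± 0.17, adjusted p = 9.51e-07), and the related enhancer Pcolce2 fell (-3.67 ± 0.37, adjusted p = 4.37e-06). The lysyl oxidases Loxl1 and Loxl3, tested only through Tbxt 7 d cells, were at 80.1, 58.4 and 90.1 CPM and 23.9, 13.9 and 18.4 CPM in them and at 1.42 and 1.69 CPM and 0.304 and 0.338 CPM in Tbxt 48 h cells. Pcolce2 went from 57.7 and 82.7 CPM to 9.32, 3.17 and 2.9 CPM.

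Among 8 receptors and binding partners, 6 rose and 1 fell in the Tbxt branch, where 30.7% and 23.5% of all tested genes did. Ddr2, a receptor for fibrillar collagen, rose from 1.52 and 1.01 CPM to 142, 148 and 178 CPM (6.12 ± 0.54, adjusted p = 2.96e-06), with no overlap, and Tgfbi (5.65 ± 0.36, adjusted p = 1.04e-07) and Sparc (3.92 ± 0.22, adjusted p = 4.03e-08) followed. Itga1, the collagen-binding integrin chain, fell (-2.37 ± 0.49, adjusted p = 0.00137). Ddr1, the related receptor of epithelia, was lower in Tbxt 7 d than FGF Sox2+ cells (-1.71 ± 0.20, adjusted p = 2.36e-05), where Ddr2 was higher (5.91 ± 0.54, adjusted p = 5.13e-06), and the FGF Sox2+ libraries had Ddr1 at 92.1 and 144 CPM and Ddr2 at 0.425 and 3.76 CPM. All 6 turnover genes rose, with Mmp14 (3.14 ± 0.23, adjusted p = 3.57e-07), which cleaves fibrillar collagen at the cell surface, Timp2 (2.76 ± 0.27, adjusted p = 3.51e-06) and Timp1 (1.90 ± 0.26, adjusted p = 6.52e-05) leading. The list holds proteases and Timp inhibitors of them, so this count gives no direction of turnover. Mmp8, a collagenase of neutrophils, was at 0 in every library.

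In DN over Sox2+ cells of Sox2-derived cultures, 22 of the 45 were higher and 1 lower, with a median of 1.10 against -0.10 over all tested genes. Of all tested genes 7.12% were higher and 6.99% lower. Under median-of-ratios scaling, which turned the split over all genes to 1206 and 611, the counts were 26 and 1. Hydroxylation and glycosylation genes made up 10 of the 22, led by P4ha2 (3.65 ± 0.23, adjusted p = 7.2e-07), Plod2 (2.53 ± 0.17, adjusted p = 1.56e-06) and P4ha1 (2.37 ± 0.24, adjusted p = 3.42e-05). The FGF DN library had P4ha2 at 448 CPM, Plod2 at 682 CPM and P4ha1 at 559.96 CPM, against 71.1, 93.3 and 91.7 CPM in FGF/CHIR DN. The Sox2+ libraries had P4ha2 at 11.3 to 15.1 CPM, Plod2 at 40.7 to 48.8 CPM and P4ha1 at 25.9 and 20.03 CPM in FGF and 81.1 CPM in FGF/CHIR cultures. In FGF/CHIR cultures alone the P4ha1 difference was 0.17 ± 0.36 (adjusted p = 0.89), and in FGF cultures 4.56 ± 0.31 (adjusted p = 2.19e-06), so its average rests on the FGF DN library. The differences of P4ha2 (2.16 ± 0.34, adjusted p = 0.00349) and Plod2 (1.18 ± 0.26, adjusted p = 0.0263) were called in FGF/CHIR cultures too. Sparc, a calcium-binding protein that binds collagen IV among others, was at 8327 CPM in FGF DN and 1945 CPM in FGF/CHIR DN cells against 331 and 373 and 148 CPM in FGF and FGF/CHIR Sox2+ cells (4.14 ± 0.22, adjusted p = 3.66e-07). Loxl2 (3.02 ± 0.36, adjusted p = 0.000143), Creb3l1 (2.72 ± 0.36, adjusted p = 0.000299) and Sec24d (2.56 ± 0.20, adjusted p = 3.52e-06) were higher, and Ddr1 (-1.31 ± 0.21, adjusted p = 0.00119) was lower. Of these, Loxl2 (1.56 ± 0.54, adjusted p = 0.163) and Creb3l1 (1.32 ± 0.54, adjusted p = 0.255) were not past the threshold in FGF/CHIR cultures alone. The FGF DN library is the one with 1924 CPM of endoderm markers. It also had the highest endothelium and smooth muscle marker sums, which rest mostly on Cdh5, Tek, Acta2 and Tagln. The part of such cells in these values was not tested.

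**Figure D5:**
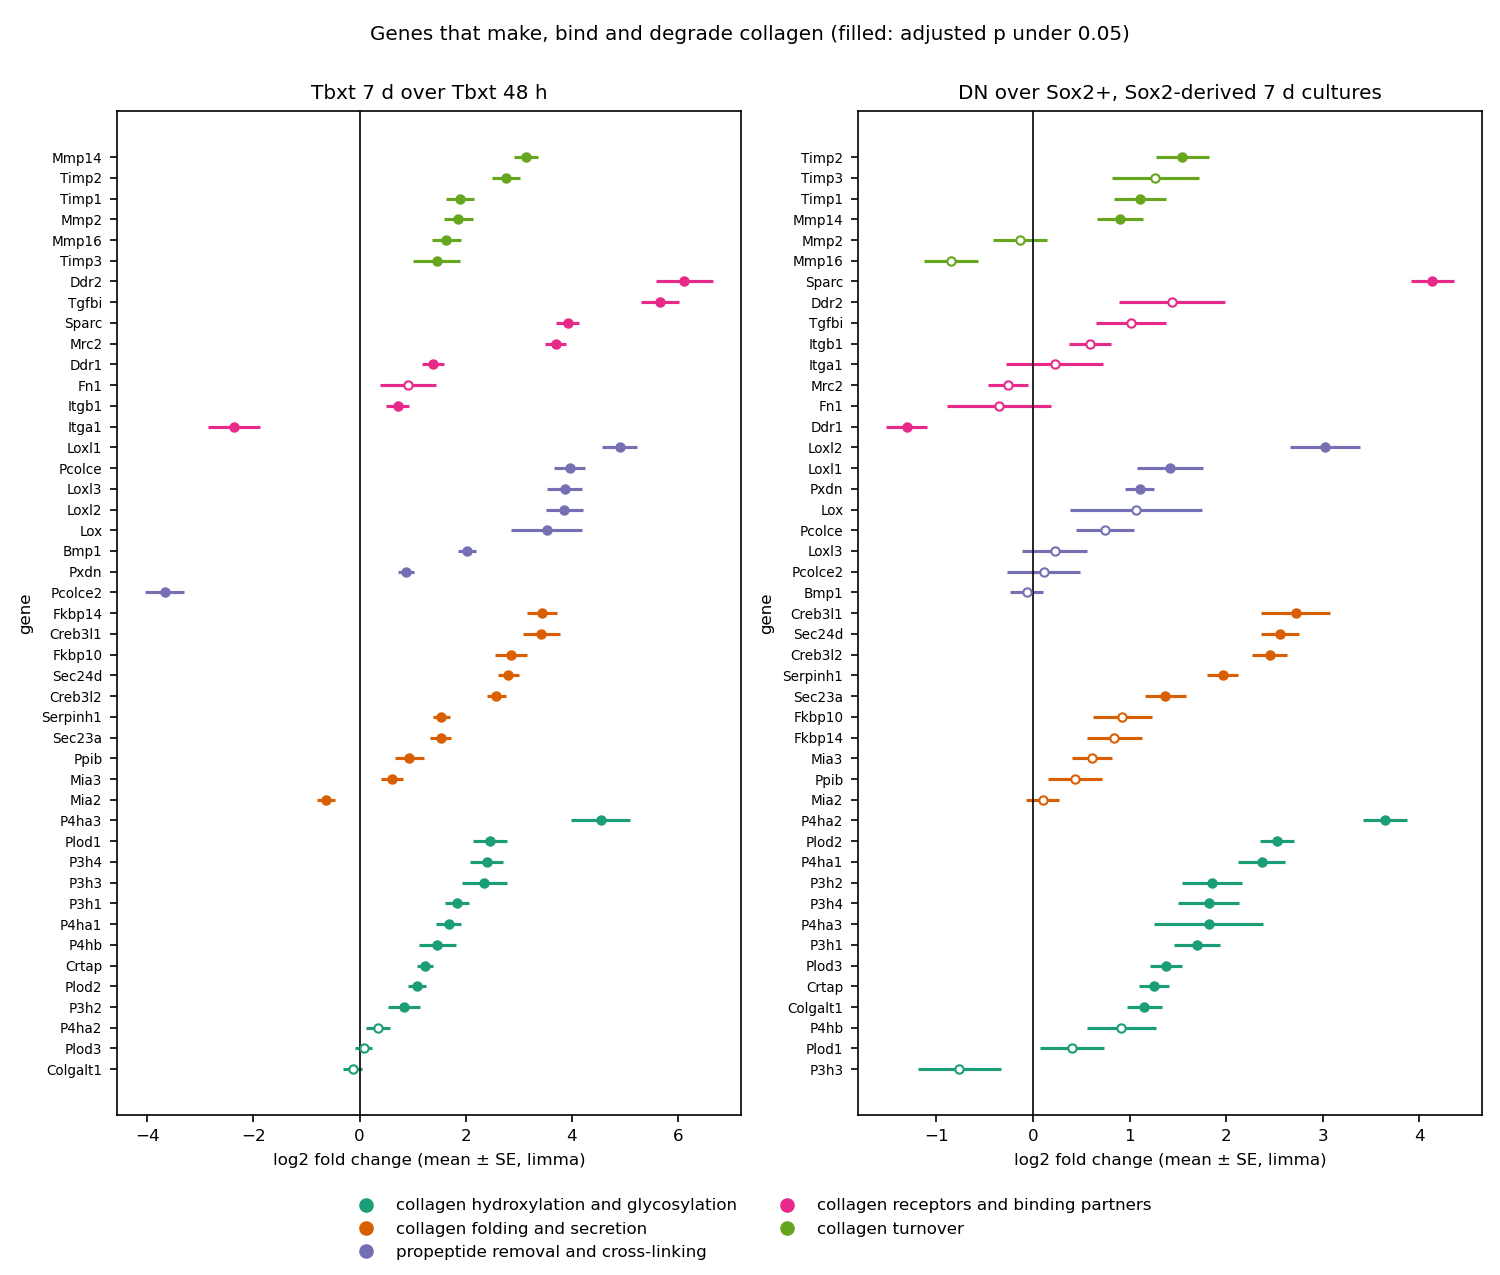
Log2 fold change (horizontal axis, mean ± SE from limma) of the 45 tested genes listed for making, binding or turnover of collagen, coloured by list. Left, Tbxt 7 d over Tbxt 48 h cells. Right, DN over Sox2+ cells of Sox2-derived cultures. Filled points passed the threshold. On the left 38 genes lie past the threshold above 0, 5 of them tested only through Tbxt 7 d cells, and 3 below, on the right 22 and 1.

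Between media the lists split. In FGF/CHIR over FGF cultures 8 of the 45 were higher and 12 lower, where 5.94% of all tested genes were higher and 7.86% lower. Lower were 5 of 13 hydroxylation and glycosylation genes, with P4ha3 (-2.05 ± 0.56, adjusted p = 0.0295), Plod2 (-1.5 ± 0.17, adjusted p = 0.00013) and P4ha2 (-1.15 ± 0.23, adjusted p = 0.00517) leading, and 5 of 10 folding and secretion genes, led by Fkbp14 (-1.38 ± 0.29, adjusted p = 0.00672). Higher were Ddr2 (2.30 ± 0.55, adjusted p = 0.0169), Mrc2 (2.16 ± 0.21, adjusted p = 4.09e-05), the collagen uptake receptor, Pcolce (1.88 ± 0.30, adjusted p = 0.00135) and Mmp2 (1.73 ± 0.28, adjusted p = 0.00135). Of these named genes, Mrc2 alone was called in both gates taken singly, Fkbp14 and Pcolce in Sox2+ cells, Plod2, P4ha2 and Mmp2 in DN cells, and P4ha3 and Ddr2 in neither. In Sox2+ cells P4ha2 had the other sign (0.33 ± 0.30, adjusted p = 0.534). Tbxt 7 d over FGF/CHIR DN cells gave 7 of the 40 higher and 5 lower, where 7.88% of all tested genes were higher and 8.86% lower. Highest of these were Ddr2 (2.17 ± 0.68, adjusted p = 0.0478), Mmp16 (1.93 ± 0.35, adjusted p = 0.00281) and Fkbp14 (1.83 ± 0.35, adjusted p = 0.00444), and lowest was Itga1 (-2.28 ± 0.62, adjusted p = 0.0255). Tbxt 48 h over Sox2 48 h cells gave 2 of the 45 higher and 5 lower, where 2.05% and 1.85% of all tested genes were. The 2 were Pcolce2 (3.54 ± 0.40, adjusted p = 0.000283) and Itga1 (2.34 ± 0.54, adjusted p = 0.0304), and of the 5, Tgfbi (-1.95 ± 0.39, adjusted p = 0.0144), Creb3l1 (-1.76 ± 0.38, adjusted p = 0.0227) and Ddr1 (-1.59 ± 0.22, adjusted p = 0.00143) changed most.

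Fits within 1 medium or 1 gate were added after the data were seen. DN over Sox2+ cells in FGF/CHIR cultures had 6 of 27 higher and 0 lower by limma (1 lower at an unadjusted p under 0.05), where 2.26% of all tested genes were higher and 1.25% lower: Col4a1, Col4a2, Col6a1, Col6a2, Col6a3 and Col26a1. In FGF cultures 4 were higher, Col4a1, Col4a2, Col27a1 and Col3a1, and 3 lower, Col4a5, Col18a1 and Col2a1, where 6.61% of all tested genes were higher and 9.17% lower. FGF/CHIR over FGF in DN cells gave 7 higher and 2 lower, where 3.98% and 3.09% of all tested genes were. The 7 were Col26a1, Col6a3, Col23a1, Col3a1, Col6a2, Col7a1 and Col18a1, and the 2 were Col4a1 and Col4a2. In Sox2+ cells the same contrast gave 2 higher, Col3a1 and Col27a1, and 2 lower, Col4a1 and Col4a2, where 3.36% and 5.6% of all tested genes were. Col4a1 and Col4a2 were thus the only chains called in the same direction in both media between gates, and they and Col3a1 the only ones called in the same direction in both gates between media. Whether the contrasts differ between media or gates was not tested.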

How the data were processed

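Bulk RNA libraries, made per the labels' protocols by bead extraction, oligo-dT priming with molecular identifiers and tagmentation, were aligned with STAR 2.7 to GRCm39 and handled with SAMtools 1.21, per the submitters' processing notes. How genes were annotated and counted, and whether identifiers were used, is not given in the sources used here. In the deposited table stand the authors' CPM values, for 78409 rows. Left out were 21909 rows without a gene name (1.1 to 1.81% of CPM) and 92 spike-in rows, and 627 rows sharing 311 symbols were summed by symbol. Depth was read from the step of 1 read; 71.1 to 78.7% of nonzero values were whole multiples within 0.01 reads, so whole reads were not recovered and no count test was run. If identifiers were not used, reads are not independent molecules. Oligo-dT tagmentation can favour 3′ ends, so every test compares levels within a gene. Sums, shares of collagen reads and ratios set different genes side by side and may carry such a bias.

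One fit of limma 3.58.1 (R 4.3.3; limma-trend, robust with statmod 1.5.0, two-sided) on log2(CPM + 1) held 15 libraries in 8 groups without covariates. Testing covered the 12943 genes that reached 5 CPM in 2 or more libraries, adjusted by Benjamini-Hochberg per comparison over all of them, with a threshold of 0.05. The fit was also run on simulated data, but no outcome of that run is given here, so it is no check of these calls. Chains with a mean of at least 20 CPM in a group are given by library, others by range; called chains are named, at most 8 per direction and comparison, and up to 3 genes per direction of each further list, passing over those tested only through Tbxt 7 d cells where these cells are compared. Collagen members were set by the symbol rule, and that rule and the lists were chosen with earlier results of these data known. Alternatives were other pseudocounts, filters and scalings, the compared groups alone, a replicate block and leaving out each replicate. Tables and figures used Python 3.11.15, numpy 2.4.6, pandas 2.3.3 and matplotlib 3.10.9.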

Additional observations from a re-analysis of the deposited data

Results flagged for a closer look

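The change from 48 h to 7 d differed between the Tbxt branch (FGF/CHIR, DN) and the Sox2 branch (FGF, Sox2+) for 17 collagen chains, by an interaction contrast in limma with adjusted p under 0.05. For 16 the gain was larger in Tbxt-derived cells, and the difference on the log2 scale was 7.45 for Col3a1, 6.08 for Col6a3, 5.25 for Col6a1, 4.88 for Col6a2, 4.55 for Col26a1, 4.28 for Col1a2 and 4.21 for Col5a2. It was 3.76 for Col8a2, 3.30 for Col16a1, 3.27 for Col27a1, 2.97 for Col23a1, 2.43 for Col5a1, 2.20 for Col9a2, 2.18 for Col8a1, 1.99 for Col7a1 and 1.62 for Col11a1. For Col2a1 the gain was smaller, with -0.97. Col6a3, Col7a1, Col8a2 and Col9a2 were tested only through Tbxt 7 d cells, the high group of this contrast. Of the 22 chains that passed without those cells, 12 had a larger and 1 a smaller gain in Tbxt-derived cells. Of all tested genes 14.2% had a larger and 19.4% a smaller change. Col8a2 was listed at 0 in both Sox2 48 h libraries, so its value depends on the added 1 CPM. Source, medium and sort gate cannot be told apart in this contrast. The call of Col7a1 was lost under 10 of 15 alternatives, that of Col2a1 under 10 of 16 and that of Col11a1 under 5 of 16. Col8a1 lost it under 3 of 16, Col8a2 under 2 of 15 and Col9a2 under 1 of 15. No group had the 4 libraries that a check for outlying samples needs.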

How the results depend on the processing

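Of 109 changes called for single chains, 67 stayed called in the same direction under every alternative tried, and 42 lost the call under at least 1. Of 1309 values under alternatives, 1177 stayed called in the same direction, 128 kept the direction without the call and 4 turned. The 4 came from fits within 1 medium or gate: DN over Sox2+ cells in FGF cultures gave -0.40 for Col26a1, -0.0025 for Col6a1 and -0.88 for Col6a3, and FGF/CHIR over FGF in Sox2+ cells gave -0.12 for Col18a1. Of 119 counts of called chains under alternatives, 103 stayed within 1.5 times. For Sox2 48 h over NMP cells (1 chain) a pseudocount of 0.25 gave 2 and no filter 2. For Tbxt 48 h over NMP cells (5 chains) the compared groups alone gave 8. For Tbxt 48 h over Sox2 48 h cells (3 chains) no filter gave 1 and the compared groups alone 5. For FGF/CHIR over FGF cells (8 chains) the compared groups alone gave 4 and Sox2+ cells alone 4, and for Tbxt 7 d over FGF/CHIR DN cells (10 chains) the compared groups alone gave 6. The smaller fits rest on fewer libraries; the cause was otherwise not tested.

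Leaving out 1 replicate at a time gave 1 to 2, 2 to 4 and 1 to 2 called chains in the 48 h comparisons in the order above. It gave 7 to 11 for FGF Sox2+ over Sox2 48 h cells (10), 21 to 24 for Tbxt 7 d over Tbxt 48 h cells (23), 22 to 25 over FGF Sox2+ cells (23) and 8 to 11 over FGF/CHIR DN cells (10). It gave 11 to 11 for DN over Sox2+ cells (9), 8 to 9 for FGF/CHIR over FGF cells (8) and 12 to 18 for the difference between branches (17). Same-numbered NMP and Tbxt 48 h libraries deviated together (r = 0.48 and 0.457), and those of other pairs of groups had r from -0.19 to 0.2. The labels do not say what a number stands for and NMP and Tbxt 48 h cells share only 2, so they were not taken as pairs. A replicate block gave 3 chains for Tbxt 48 h over NMP cells, without Col13a1 (adjusted p = 0.0556) and Col4a2 (adjusted p = 0.0883), and stayed within 1.5 times elsewhere. For Tbxt 48 h over Sox2 48 h cells (r = -0.17) the crossed pairing, added after the data were seen, gave 2 chains. Depth limits what FGF Sox2+ replicate 2 can show of chains under 3.76 CPM.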
